A study of Mus musculus with 10 samples.

Results

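Genes of cholesterol and fatty acid synthesis were followed in mouse bone marrow cultures kept for up to 120 h with or without adiponectin. The set held 32 listed genes of known roles in these pathways; the list was drawn up with earlier results of these data known. A gene was measured where a probe set of the array carried its symbol alone, and the probe set with the highest mean stood for the gene. This gave 31 of the 32 genes, out of 19938 genes measured in the same way; Acat2 had no such probe set and is not analysed here. The 31 genes comprised 16 of sterol synthesis, 10 of fatty acid synthesis and 5 regulators or carriers.

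The cultures were marrow from the long bones of Swiss male mice aged 4 to 6 weeks, plated in medium with 10% fetal calf serum and 1,25-dihydroxyvitamin D3, which both arms received. The treated arm had recombinant mouse adiponectin, a hormone of fat cells, at 5 µg/ml. The control arm is described in the labels both as vehicle-treated and as untreated. One array was made from each arm at 4, 10, 24, 72 and 120 h, which gives 5 pairs of arrays. The series title states that there is evidence of lipopolysaccharide (bacterial endotoxin) contamination, so the treated arm cannot be read as adiponectin alone. The labels do not say whether cultures came from separate or pooled animals, and the p-values therefore reflect only how far these cultures vary, possibly for technical reasons. All values are on a log2 scale, where a difference of 1 is a doubling.

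Cells make cholesterol from acetyl-CoA through the mevalonate pathway, squalene and lanosterol, and make fatty acids from the same precursor through malonyl-CoA. Both routes are driven by SREBP transcription factors. When membrane sterol is plentiful, SCAP and INSIG proteins hold the SREBP precursors in the endoplasmic reticulum; when it is scarce, they are released and cut, and the target genes are transcribed. SREBP2 acts mainly on sterol genes and SREBP1 mainly on fatty acid genes.

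SREBP proteins act with the CCAAT-binding factor NF-Y and with Sp1. The promoter letters of these genes were looked up with the 24 h values known, and their part in those values was not tested. RefSeq promoters (GRCm38.p6, a window of 300 bases from 250 before to 50 after a start site) were matched by symbol for 24 of the 31 genes. CCAAT, read on both strands, was found for 13 of 13 sterol synthesis genes with a promoter, 4 of 7 fatty acid genes and 3 of 4 regulators, against 41.1% of all 27025 genes in the table. GGGCGG, the letters of an Sp1 box, was found for 12 of 13 sterol synthesis genes, 3 of 7 fatty acid genes and 4 of 4 regulators, against 38.2% of all genes. TCACNCCAC, a form of the sterol regulatory element, was found for Hmgcs1 alone among the members, against 1.44% of all genes. CACGTG, an E-box, was found for 6 of 24 members and 8.09% of all genes. A gene counted if any of its listed promoters held the letters. A match is a description of letters, and a missing match says only that they are not in this window. The stretches below run up to the start site and show genes picked after their values were seen. Capitals mark matches of the sterol element, CCAAT (on the other strand it reads as ATTGG) and, for Insig1, the E-box. In Fads2, which has no CCAAT here, the capitals mark GGGCGG.
Hmgcs1, chr13:119690101-119690350, + strand: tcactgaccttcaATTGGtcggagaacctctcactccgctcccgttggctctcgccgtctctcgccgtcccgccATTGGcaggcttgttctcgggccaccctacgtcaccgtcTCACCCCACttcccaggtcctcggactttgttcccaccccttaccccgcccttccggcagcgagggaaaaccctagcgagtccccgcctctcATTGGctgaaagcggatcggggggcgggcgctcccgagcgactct
Insig1, chr5:28071162-28071411, + strand: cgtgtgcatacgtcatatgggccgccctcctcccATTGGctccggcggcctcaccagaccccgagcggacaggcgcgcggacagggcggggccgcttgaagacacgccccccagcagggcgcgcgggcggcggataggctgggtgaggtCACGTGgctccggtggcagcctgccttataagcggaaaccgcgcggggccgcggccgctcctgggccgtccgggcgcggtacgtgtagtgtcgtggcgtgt
Msmo1, chr8:64733579-64733758, - strand: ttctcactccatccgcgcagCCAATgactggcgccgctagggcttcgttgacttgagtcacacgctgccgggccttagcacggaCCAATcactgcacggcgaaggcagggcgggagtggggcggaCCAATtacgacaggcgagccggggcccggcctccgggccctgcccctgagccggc
Cyp51, chr5:4104698-4104877, - strand: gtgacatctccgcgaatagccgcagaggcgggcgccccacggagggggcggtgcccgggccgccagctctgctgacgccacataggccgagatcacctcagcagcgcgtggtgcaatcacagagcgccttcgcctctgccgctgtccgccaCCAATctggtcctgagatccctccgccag
Idi1, chr13:8885426-8885605, + strand: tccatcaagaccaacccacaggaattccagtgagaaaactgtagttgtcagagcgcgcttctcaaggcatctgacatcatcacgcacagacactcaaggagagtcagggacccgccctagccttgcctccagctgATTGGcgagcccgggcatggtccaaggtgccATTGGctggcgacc
Fads2, chr19:10101504-10101703, - strand: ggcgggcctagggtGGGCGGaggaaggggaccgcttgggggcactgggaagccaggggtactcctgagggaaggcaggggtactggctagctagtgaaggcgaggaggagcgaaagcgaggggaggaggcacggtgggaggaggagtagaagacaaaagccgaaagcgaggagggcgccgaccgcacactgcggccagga

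Array medians over all genes lay between 8.27, in the 10 h control, and 8.48, in the 24 h control, and the 10 h control stood apart as the low array. Correlations between arrays over all probe sets ran from 0.9686 to 0.9937. Marker lists of cell types moved in different directions over time in culture. The mean level of 9 neutrophil genes went from 13.31 at 4 h to 10.10 at 120 h in the control and from 13.07 to 10.15 in the treated arm. That of 6 B lineage genes went from 10.73 to 8.97 and from 10.69 to 9.09, that of 7 osteoclast genes from 9.56 to 12.19 and from 9.58 to 11.78, and that of 7 stromal genes from 9.93 to 10.78 and from 9.72 to 10.93. For 3 erythroid genes it went from 9.29 to 7.45 and from 9.33 to 7.30. For 7 genes of dividing cells it went from 11.44 to 10.57 and from 11.20 to 10.84. For 7 adipocyte genes it went from 9.34 to 9.94 and from 9.19 to 9.66, with Adipoq changing by 3.02 and 2.76. The mean of 8 macrophage genes moved less, from 12.39 to 12.71 and from 12.45 to 12.78, but single genes moved in opposite directions. From 4 to 120 h Mrc1 changed by 1.18 in the control and 1.43 in the treated arm. C1qa changed by 0.97 and 1.33, and Cd14 by -0.32 and -0.89. No defining marker could be called absent, since the sources used here give no signal over background. In such bulk RNA, fewer cells of a type and less RNA per cell cannot be told apart.

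A few members differed strongly between times in culture and most of them little. Tests of any difference between the 5 times (limma F test beside treatment, Benjamini-Hochberg adjusted p under 0.05 over all genes) called 5 of the 31 members, or 16.1%, against 14.4% of all 19938 genes, a share near the background. The called genes were Fads2, Scd1 and Scd2 of fatty acid synthesis and Idi1 and Fdps of sterol synthesis. Without the 24 h arrays the count was 9, and it was also 9 after a second quantile normalization and when limma's prior was trended and robust. That is 29.0% of the members, against 2807, 3071 and 3270 of all 19938 genes in these fits, so how the share stood to the background depended on the setting. The test assumes the same difference between arms at every time.

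Fads2, the delta-6 desaturase that begins the synthesis of long polyunsaturated fatty acids, had the largest fall from 4 to 120 h of the 31 members in each arm. In the control it was at 11.45, 11.52, 11.53, 10.29 and 9.70 from 4 to 120 h, and in the treated arm at 11.43, 11.39, 11.11, 10.36 and 9.69. Both arms were high up to 24 h and low at 72 and 120 h, with no overlap. The fall from 4 to 120 h was 3.38-fold in the control and 3.34-fold in the treated arm (F test adjusted p = 1.14e-05). Per doubling of time the limma slope was -0.37 ± 0.08 (SE) in the control and -0.35 ± 0.08 in the treated arm (adjusted p = 0.0234 and 0.0285). The F test kept its call with any 1 time left out, but the slopes lost theirs without 10, 72 or 120 h (adjusted p up to 0.281). The neutrophil and B lineage levels given above moved over the same times, and their part in the result was not tested.

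Fads1, the delta-5 desaturase of the same route, rose in the treated arm. Its values were 12.04, 12.16, 12.27, 12.38 and 12.38 in the control and 11.88, 12.12, 12.22, 12.47 and 12.41 in the treated arm. It was lowest at 4 h in both arms. The slope passed in the treated arm (0.11 ± 0.02 per doubling, limma adjusted p = 0.0187) and not in the control (0.07 ± 0.02, adjusted p = 0.0847). These slopes were not shown to differ (interaction with log2 hours 0.04 ± 0.04, adjusted p = 0.665). Without 4, 72 or 120 h the treated slope lost its call (adjusted p up to 0.196).

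**Figure D1:**
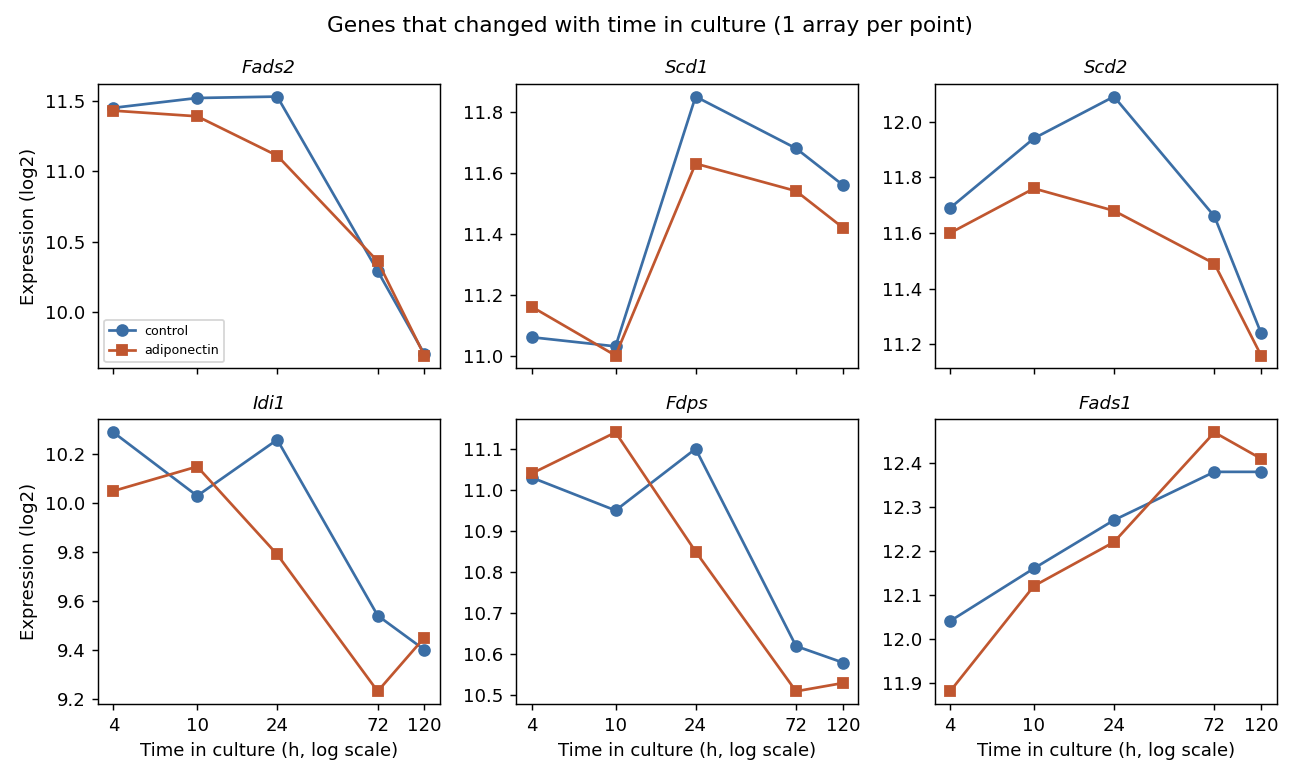
Expression on the log2 scale (vertical axis, which does not start at 0) against hours in culture (log scale) for Fads2, Scd1, Scd2, Idi1, Fdps and Fads1, with 1 array per point in the control (circles) and adiponectin (squares) arms. Fads2 is between 11.11 and 11.53 up to 24 h and at 9.69 to 9.70 at 120 h, while Scd1 steps up between 10 and 24 h in both arms. Fads1 passed only the slope test in the adiponectin arm (F test adjusted p = 0.0650); the other 5 genes passed the F test.

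The stearoyl-CoA desaturases, which make oleate and palmitoleate, had separate time courses. Scd1 was at 11.06, 11.03, 11.85, 11.68 and 11.56 in the control and at 11.16, 11.00, 11.63, 11.54 and 11.42 in the treated arm. All 6 arrays from 24 h on lay above all 4 earlier arrays (F test adjusted p = 0.00426, kept with any 1 time left out). Scd2 was at 11.69, 11.94, 12.09, 11.66 and 11.24 in the control and at 11.60, 11.76, 11.68, 11.49 and 11.16 in the treated arm. Its lowest value in each arm was that of 120 h (F test adjusted p = 0.0114, but 0.314 without the 120 h arrays). Scd2 was also lower in the treated arm in 5 of 5 pairs, by 0.19 ± 0.13 on average (SD, n = 5 pairs), which did not pass over all genes (limma adjusted p = 0.405).

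Elovl5, an elongase of polyunsaturated fatty acids, fell over time in the control, from 11.50, 11.47 and 11.46 at 4, 10 and 24 h to 11.01 and 10.75 at 72 and 120 h (slope -0.15 ± 0.03 per doubling, limma adjusted p = 0.0267). In the treated arm it was at 11.11, 11.28, 11.03, 10.95 and 10.87, with a slope of -0.06 ± 0.03 (adjusted p = 0.349). The treated arrays began lower and ended at about the same level, and the slopes were not shown to differ (interaction 0.09 ± 0.04, adjusted p = 0.518). The control slope lost its call without 10, 72 or 120 h (adjusted p up to 0.420) and when fitted to the control arrays alone. Elovl6, which extends palmitate to stearate, was highest at 72 h in both arms, at 10.61 in the control and 10.35 in the treated arm (F test adjusted p = 0.0572).

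The enzymes that build palmitate passed no test over time. Fasn, fatty acid synthase, stayed between 10.40 and 10.79 over all 10 arrays, Acly, which cleaves citrate to acetyl-CoA, between 10.79 and 11.16, and Acaca, acetyl-CoA carboxylase, between 9.04 and 9.71. The lowest value of each was that of the 10 h control, the array with the lowest median. Over the 10 fatty acid genes, the median slope was -0.01 per doubling in the control and -0.03 in the treated arm, beside 0.02 and -0.01 over all genes. In the control 0 rose, against 4.64% of all genes, and 2 fell, against 4.45%. In the treated arm 1 rose, against 4.15% of all genes, and 1 fell, against 3.46%. Without the 4 h arrays the control median was 0.06.

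Among the sterol synthesis genes, Idi1 and Fdps of the isoprenoid steps passed the test between times. Idi1, isopentenyl-diphosphate isomerase, was at 10.29, 10.03, 10.26, 9.54 and 9.40 in the control and at 10.05, 10.15, 9.79, 9.23 and 9.45 in the treated arm (F test adjusted p = 0.00603, kept with any 1 time left out). Every array of 72 and 120 h lay below every earlier one. Its slope was -0.18 ± 0.05 per doubling in the control (limma adjusted p = 0.0410) and -0.17 ± 0.05 in the treated arm (adjusted p = 0.0507); the first lost its call without 4, 10, 72 or 120 h (adjusted p up to 0.416). A second Idi1 probe set had a similar difference between arms at 24 h, -0.32 against -0.47.

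Fdps, farnesyl diphosphate synthase and the target of the nitrogen-containing bisphosphonates used against osteoclasts, was at 11.03, 10.95, 11.10, 10.62 and 10.58 in the control and at 11.04, 11.14, 10.85, 10.51 and 10.53 in the treated arm. The 4 arrays of 72 and 120 h again lay below the other 6 (F test adjusted p = 0.0268, but up to 0.115 without 72 or 120 h). The mean level of the osteoclast genes at 72 h was 12.10 in the control and 10.73 in the treated arm, above every array up to 24 h, as it was at 120 h; their part in the result was not tested.

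In the treated arm, slopes below 0 were called for Fdps (-0.13 ± 0.03, limma adjusted p = 0.0486), Cyp51, the lanosterol demethylase (-0.16 ± 0.04, adjusted p = 0.0456), and Sc5d, the lathosterol desaturase (-0.12 ± 0.03, adjusted p = 0.0488). All of them were close to the threshold, and each lost its call without 4, 10, 72 or 120 h (adjusted p up to 0.399). Together with Fads1 and Fads2 this made 5 of 31 members, or 16.1%, with a slope called in the treated arm, against 7.6% of all genes, and 3 of 31, or 9.68%, in the control, against 9.09%. Most members are bright, and among the 9969 genes above the median level the shares lay otherwise. There 20% of 30 members were called in the treated arm, against 14.3%, and 10% in the control, against 14.8%. In the main fit, falls numbered 4 in the treated arm, against 3.46% of all genes, and 3 in the control, against 4.45%. The 4 became 1 without 4 h and 0 without 10, 72 or 120 h, and the 3 became 0 without 10, 72 or 120 h; the 1 rise, Fads1, against 4.15% of all genes, became 0 without 4, 72 or 120 h. Falls over all genes went from 888 in the control to 617, 27 and 17 without 10, 72 and 120 h, and from 689 in the treated arm to 431, 320, 50 and 15 without 4, 10, 72 and 120 h. Over the 16 sterol synthesis genes the median slope was -0.04 in the control and -0.07 in the treated arm, beside 0.02 and -0.01 over all genes. Of the 16 slopes, 13 and 11 were below 0. The share of all genes below 0 was not counted, and genes read on the same arrays are not independent. No member's slope was called different between arms (limma interaction with log2 hours, 0 of 31, against 0% of all genes; at an unadjusted p under 0.05 it was 1, Ebp, higher, against 3.11%).

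**Figure D2:**
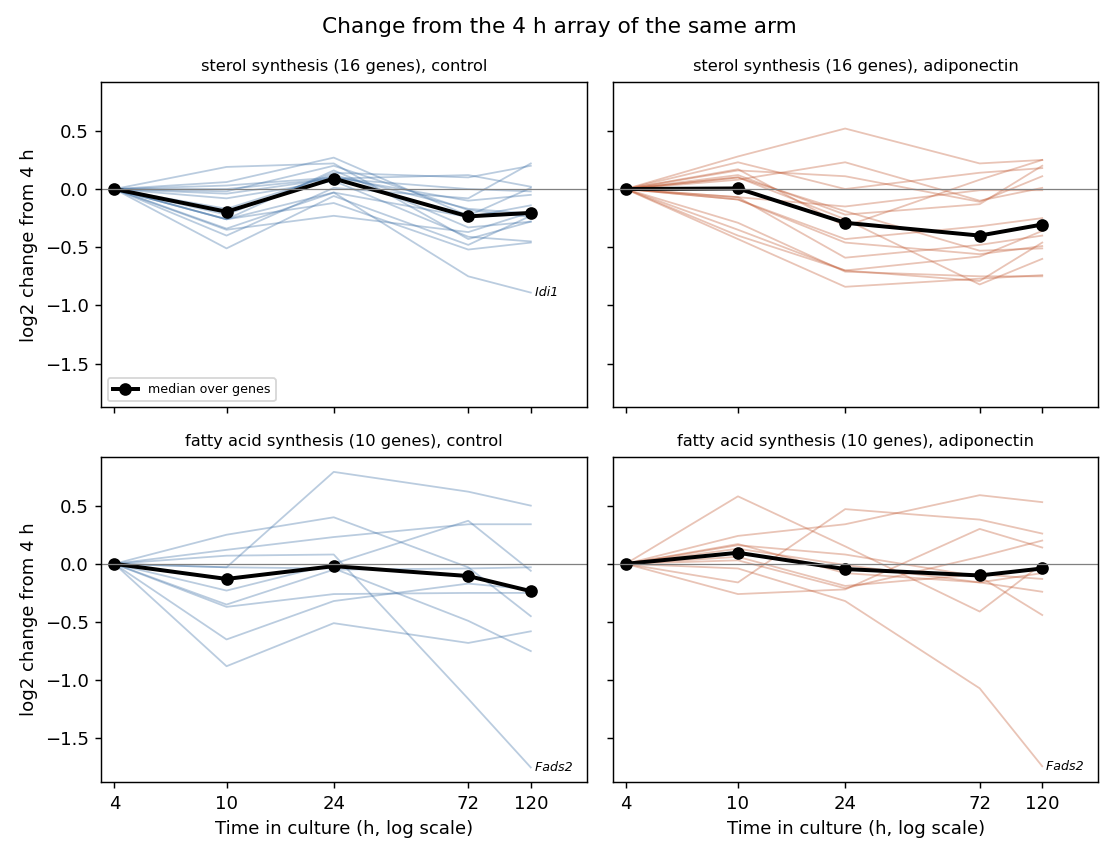
Log2 change from the 4 h array of the same arm (vertical axis) against hours in culture (log scale) for the 16 sterol synthesis genes (top) and 10 fatty acid synthesis genes (bottom) in control (left) and adiponectin (right) cultures; thin lines are genes and the black line is their median. At 24 h the sterol median is 0.09 in the control and -0.29 in the treated arm, while the fatty acid medians are -0.02 and -0.05.

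Relative to 4 h, 13 of 16 sterol synthesis genes were lower at 24 h in the treated arm, with a median change of -0.29, while in the control 11 of 16 were higher, with a median of 0.09. The median over all genes was 0.01 and 0.02. At 72 h the medians were -0.40 and -0.24, and at 120 h -0.31 and -0.21, so that the arms were closer again. From 10 to 24 h, 16 of 16 rose in the control (median 0.21, beside 0.12 over all genes). In the treated arm 14 of 16 fell (-0.33, beside 0.04). From 24 to 72 h, 15 of 16 fell in the control (-0.34, beside 0.01). In the treated arm 8 of 16 fell (0.02, beside -0.03), so the arms came closer mainly as the control fell. For the 10 fatty acid genes the medians at 24 h were -0.05 in the treated arm and -0.02 in the control. This difference between the groups of genes was not tested, and each point is 1 array.

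Averaged over the 5 times, no member passed the test between arms. The limma treatment term beside time as a block called 0 of 31 members, against 2.05% of all genes higher and 0.371% lower. Its error comes from the spread of the arm difference over the 5 times. A difference at 1 time alone thus adds to that error and is poorly seen by this test. At an unadjusted p under 0.05, 1 member was higher (Acss2) and 3 were lower (Ebp, Elovl6 and Scd2), against 5.91% and 4.21% of all genes. The median difference was -0.05 for sterol synthesis genes, -0.06 for fatty acid genes and -0.06 for regulators and carriers, beside 0.01 over all genes. Those lower in 5 of 5 pairs were Insig1, Ebp and Scd2, against 4.4% of all genes, and higher in 5 of 5 pairs were 0 members, against 6.32%.

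Differences at single times rest on 1 array per arm and have no replicate check. At 24 h, 26 of 31 members were lower in the treated arm, against 48.1% of all genes, and 15 were lower by at least 1.25-fold, against 10.8% of all genes. At 4, 10, 72 and 120 h the counts past 1.25-fold downwards were 2, 0, 0 and 0, against 8.79%, 4.36%, 3.51% and 5.54%. The 15 genes were Insig1 and Stard4, 9 of the 16 sterol synthesis genes (Hmgcs1, Mvd, Idi1, Fdft1, Sqle, Cyp51, Msmo1, Hsd17b7 and Sc5d) and 4 of the 10 fatty acid genes (Elovl5, Elovl6, Scd2 and Fads2). Past 1.5-fold, 3 members were lower at 24 h (Insig1, Stard4 and Fdft1), against 1.98% of all genes, and past 0.4 on the log2 scale 12 were, against 6.59%. These lines were chosen with the values known. For 20 of 31 members the lowest of the 5 differences was that of 24 h, as it was for 23.7% of all genes.

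**Figure D3:**
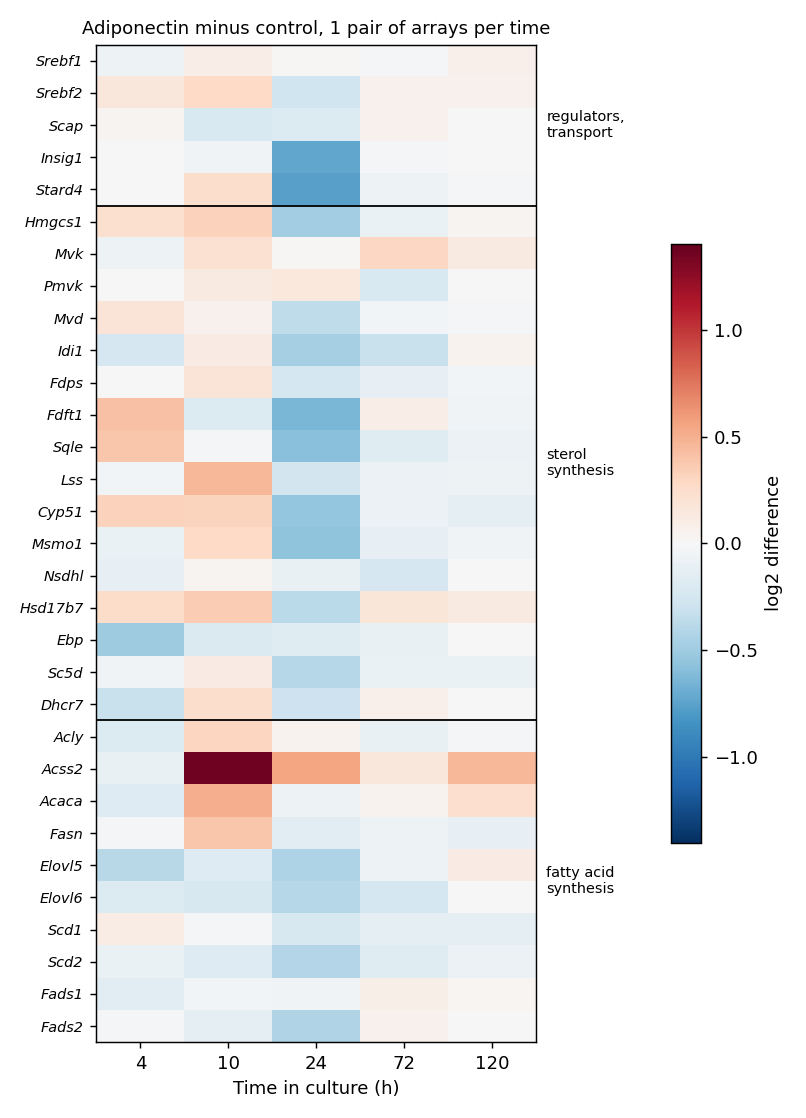
Adiponectin minus control on the log2 scale (colour, blue lower and red higher in the treated arm) for 31 genes (rows, by role) at 5 times in culture (columns, h), each cell 1 pair of arrays. The 24 h column is blue for 26 of 31 genes, deepest for Stard4 at -0.76 and Insig1 at -0.73, and Acss2 at 10 h is the reddest cell at 1.36.

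Among the regulators, Insig1 encodes an anchor that holds SREBP when sterol is plentiful, and is itself an SREBP target. Insig1 was at 11.17, 10.94, 11.48, 11.10 and 11.35 in the control and at 11.17, 10.89, 10.75, 11.09 and 11.34 in the treated arm. The arms lay within 0.05 of each other at 4 times and differed by -0.73 at 24 h. Stard4, a cytosolic sterol carrier, was at 9.44, 8.90, 9.42, 8.90 and 8.89 in the control and at 9.45, 9.15, 8.66, 8.83 and 8.88 in the treated arm, a difference of -0.76 at 24 h. For both genes the arms were furthest apart at that time. Srebf2, which encodes SREBP2, differed by 0.16, 0.28, -0.28, 0.06 and 0.06 from 4 to 120 h, and Scap, the SREBP escort, by 0.04, -0.21, -0.19, 0.06 and -0.01. Srebf1 stayed between 9.90 and 10.22 over all arrays, with differences from -0.07 to 0.09. None of these 5 genes passed the treatment, slope, interaction or F test.

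Of the early mevalonate genes, Hmgcs1 and Mvd were past the 1.25-fold line at 24 h. Hmgcs1, which makes HMG-CoA, was at 10.86, 10.69, 10.98, 10.69 and 10.65 in the control and at 11.08, 11.01, 10.49, 10.60 and 10.68 in the treated arm. The treated culture was thus the higher one at 4 and 10 h, by 0.22 and 0.32, and the lower one at 24 h, by -0.49. Mvd, mevalonate diphosphate decarboxylase, differed by 0.18 and 0.06 at 4 and 10 h and by -0.35 at 24 h. The mevalonate kinases had differences at 24 h of 0.02 for Mvk and 0.15 for Pmvk. Over the 5 pairs Mvk had a mean difference of 0.12 ± 0.14 (SD, n = 5 pairs; limma adjusted p = 0.735).

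Of the squalene and lanosterol genes, Fdft1, Sqle and Cyp51 were past the 1.25-fold line at 24 h and Lss was not. Fdft1, squalene synthase, was at 11.13, 11.32, 11.35, 10.70 and 10.85 in the control and at 11.55, 11.12, 10.71, 10.78 and 10.81 in the treated arm, a difference of 0.41 at 4 h and -0.64 at 24 h. Its second probe set gave 0.51 and -0.83. Sqle, squalene epoxidase, a rate-controlling step, was at 10.32, 10.38, 10.59, 10.09 and 10.33 in the control and at 10.71, 10.36, 10.01, 9.92 and 10.25 in the treated arm, a difference of 0.39 at 4 h and -0.58 at 24 h. Cyp51 was at 9.28, 9.02, 9.44, 8.95 and 9.0 in the control and at 9.61, 9.32, 8.90, 8.86 and 8.86 in the treated arm. It was thus higher in the treated culture at 4 and 10 h, by 0.32 and 0.31, and lower at 24 h, by -0.54. Lss, lanosterol synthase, had differences of 0.47 at 10 h and -0.26 at 24 h.

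**Figure D4:**
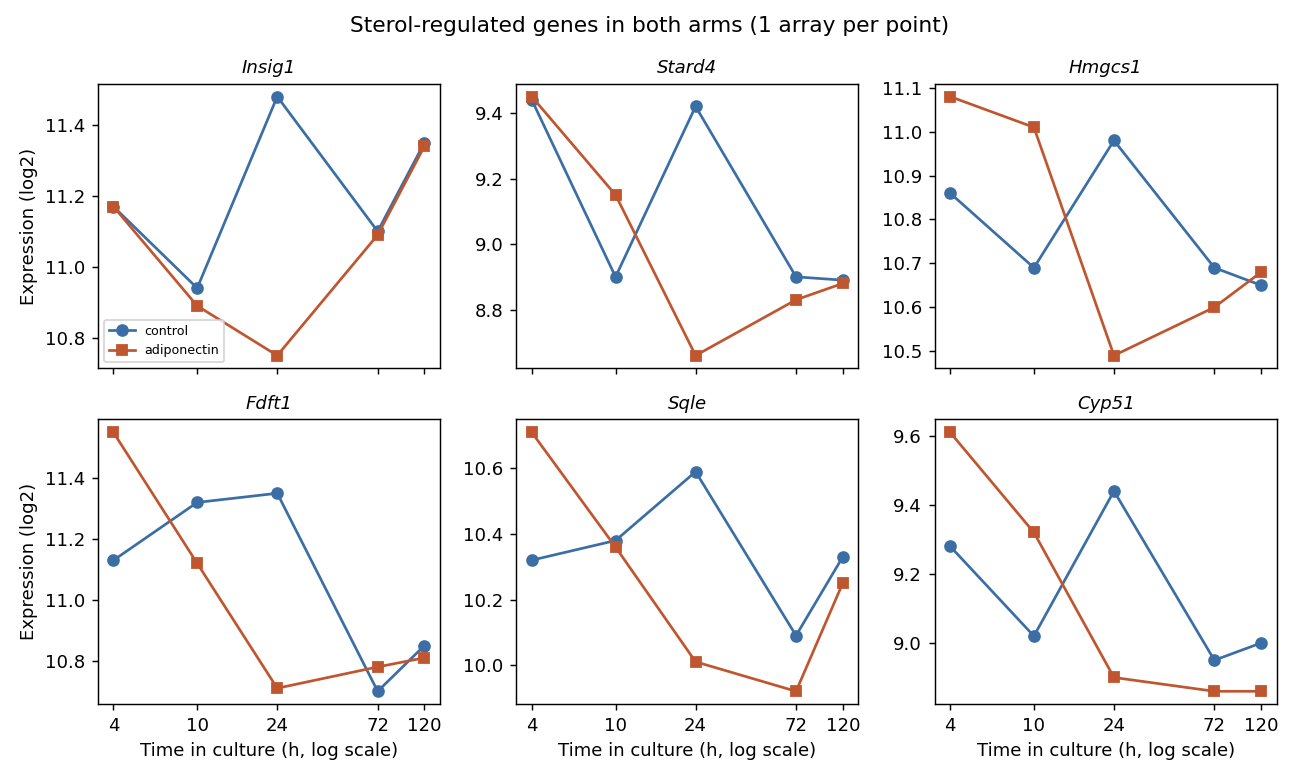
Expression on the log2 scale (vertical axis, which does not start at 0) against hours in culture (log scale) for Insig1, Stard4, Hmgcs1, Fdft1, Sqle and Cyp51 in control (circles) and adiponectin (squares) cultures, 1 array per point. At 24 h all 6 genes are lower in the treated culture, by -0.49 to -0.76, and at 120 h the arms lie within 0.14 of each other.

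The later steps from lanosterol to cholesterol were more mixed. Msmo1, the C-4 methyl oxidase, differed by -0.09, 0.28, -0.56, -0.12 and -0.05, and Hsd17b7, the 3-keto reductase, by 0.26, 0.36, -0.38, 0.17 and 0.13 from 4 to 120 h. Sc5d was at -0.40 and Dhcr7, which completes one branch of the pathway, at -0.29 at 24 h, while Nsdhl was at -0.10. Ebp, the sterol isomerase, had its largest difference at 4 h, where it was 9.65 in the treated arm and 10.15 in the control, and approached the control from there, with differences of -0.20, -0.17, -0.10 and -0.01. Its mean difference of -0.20 ± 0.19 (SD, n = 5 pairs) did not pass (limma adjusted p = 0.447).

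Each time was also set against the other 4 in the model with time as a block, a test added after the values were seen. It called 0 of 31 members at 24 h and 0 at each of the other times (limma adjusted p at or above 0.476), against 0% of all genes at 24 h and 0.01% at 120 h. At an unadjusted p under 0.05, 9 members were lower at 24 h than at the other times, against 3.24% of all genes. They were Srebf2, Insig1, Stard4, Hmgcs1, Fdft1, Sqle, Cyp51, Msmo1 and Hsd17b7, led by Stard4 at -0.81 ± 0.19 (SE) and Insig1 at -0.70 ± 0.17 (limma adjusted p = 0.837 for both). With 1 pair at 24 h, an effect of that time and of that pair of cultures cannot be told apart.

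The median difference of the sterol synthesis genes at 24 h was -0.36 as deposited, -0.34 with each array centred on its median and -0.27 after a second quantile normalization, with 14 of 16 lower in each. That of the fatty acid genes was -0.19, -0.17 and -0.18, with 8, 8 and 7 of 10 lower. At 10 h, 13 of 16 were higher in the treated arm as deposited, with a median of 0.16, but 8 of 16 after centring, with a median of 0.02, and 10 of 16 after quantile normalization, with a median of 0.05; over all genes 64.6% were higher at 10 h as deposited. Markers of several cell types also differed at 24 h. All 7 measured genes of dividing cells were lower in the treated arm, with a median of -0.18. Summed log2 values of these genes ran from 74.0 to 80.1 over the control arrays of the 5 times. Over the treated arrays they ran from 75.9 to 78.4. All 7 were lower at 4 h too, with a median of -0.24. Neutrophil genes had a median of -0.19 at 24 h (8 of 9 lower). Their medians at 4, 10, 72 and 120 h were -0.24, -0.17, -0.45 and -0.03. Their summed log2 values ran from 90.9 to 119.8 over the control arrays and from 91.3 to 117.6 over the treated ones. Adipocyte genes had a median of -0.27 at 24 h (5 of 7 lower), with Plin1 and Cidec higher by 0.15 and 0.37. Their medians at 4, 10, 72 and 120 h were -0.29, -0.09, -0.25 and -0.31. Their summed log2 values ran from 64.8 to 69.6 and from 63.4 to 67.6. Osteoclast genes had a median of -0.51 at 24 h (5 of 7 lower) and of -1.32 at 72 h (7 of 7 lower). Their summed log2 values ran from 66.6 to 85.3 over the control arrays and from 67.0 to 82.5 over the treated ones. Macrophage genes had a median of 0.07 (2 of 8 lower), with Mrc1 at -1.62. The part of these cell types in the sterol values was not tested.

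Acss2, which makes acetyl-CoA from acetate, had the largest difference of any member and the opposite sign. It was at 10.14, 9.26, 9.63, 9.46 and 9.56 in the control and at 10.03, 10.61, 10.18, 9.62 and 10.03 in the treated arm, so that the treated culture was higher at every time but 4 h. The differences were -0.10, 1.36, 0.55, 0.16 and 0.47, with a mean of 0.49 ± 0.55 (SD, n = 5 pairs), and did not pass (limma adjusted p = 0.256). At 10 h Acaca and Fasn were also higher, by 0.51 and 0.39, and a second, dimmer Acaca probe set gave 1.01. The array medians at 10 h were 8.40 in the treated arm and 8.27 in the control.

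Other genes of the pathway were counted from a list chosen by role. Of 7 measured further sterol genes, 0 passed the treatment test (limma; also 0 at an unadjusted p under 0.05) and 1, or 14.3%, the F test, against 14.4% of all genes. This was Insig2, the second INSIG gene, whose mean of the arms went from 9.95 at 4 h to 10.51 at 120 h (adjusted p = 0.0102). Of 17 further fatty acid and triglyceride genes, 1 fell with treatment, against 0.371% of all genes, and 0 rose, against 2.05%. The gene that fell was Lpin1, a phosphatidate phosphatase of triglyceride synthesis and an SREBP target, which was lower in 5 of 5 pairs, by -0.50 ± 0.24 on average and by -0.88 at 24 h (limma adjusted p = 0.0164). At an unadjusted p under 0.05 in the same test, 2 were higher (Acsl4 and Acsl5), against 5.91% of all genes. Lower were 2 (Mid1ip1 and Lpin1), against 4.21%. Of these 17 genes, 5, or 29.4%, passed the F test, against 14.4% of all genes. Dgat2, which completes triglyceride synthesis, went from a mean of 11.12 to 9.63 (adjusted p = 1.03e-05) and Elovl7, an elongase, from 8.99 to 7.29 (adjusted p = 4.55e-05). Lpin1 went from 8.23 to 9.63, and Dgat1 and Acsl4 passed as well. At 24 h the further sterol genes had a median difference of -0.09 and the further fatty acid genes one of -0.04.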

How the data were processed

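The deposited table held log2 expression values for 35556 probe sets on 10 arrays, which the authors made by RMA; the submitters' processing notes also name Partek and Affymetrix Expression Console. Their versions, the genome build and signal over background were not stated in the sources read. Labelling started from 100 ng of total RNA, per the labels' protocols. Probe sets were named from the platform annotation: 21789 had 1 symbol, 1621 several and 12146 none. The highest-mean probe set stood for each of 19938 genes.

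limma 3.58.1 (R 4.3.3) was fitted to all genes, two-sided, with Benjamini-Hochberg adjusted p under 0.05 as the call. The treatment effect was fitted beside time as a block, since the labels pair the arms by time. Across all genes, the treated-minus-control differences of different times correlated with each other at 0.11 to 0.64. Slopes were fitted per arm on log2 hours, and differences between times by an F test. The number of arrays limits the precision. Members past a threshold in any test were named, with the 3 largest mean differences and slopes per role. The members and lists were chosen with earlier results of these data known. The single-time cutoffs, the test of 1 time against the other 4, the promoters printed and the genes plotted at 24 h were chosen after values were seen. The fits were tested on simulated data, with gene spreads drawn from the fitted prior and, separately, with each gene's posterior spread; in both, some comparisons had a share of false calls above the nominal level, so calls near the threshold are less certain than their adjusted p. Alternatives tried were 2 other scalings, the mean of probe sets, dim genes left out, a trended robust prior, other time terms and each time left out.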

Additional observations from a re-analysis of the deposited data

Results flagged for a closer look

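Among the 5 differences of each of 31 members, 1 lay far from the other 4 by Dixon's criterion for 2 members, and chance alone gives about 1 in 20 such groups. Insig1 stood apart at 24 h, with a difference of -0.73. Fasn stood apart at 10 h, with 0.39, in the pair that holds the control array with the lowest median.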

How the results depend on the processing

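The treatment effect called 0 members higher and 0 lower under every alternative run, the fit with no replicate block (time as the pairing) included, and the interaction with time called 0 under every alternative run. Falls in the control numbered 3, but 5 with arrays centred on their medians, 5 with hours in place of log2 hours, 1 with the arm fitted alone and 0 to 3 with 1 time left out. Falls in the treated arm numbered 4, but 2 with a trended, robust prior, 2 with hours and 0 to 6 with 1 time left out; the 1 rise became 0 with hours and ranged from 0 to 1. Members differing between times numbered 5, but 9 after a second quantile normalization, 9 with a trended, robust prior, and 4 to 9 with 1 time left out. The median sterol slope in the treated arm was -0.07, but -0.03 with hours and -0.11 to -0.04 with 1 time left out; the fatty acid median in the control was -0.01 and ranged from -0.05 to 0.06. The causes were not tested. With 1 array per arm and time, single-time differences have no error of their own.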

Other observations

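Ch25h, which encodes cholesterol 25-hydroxylase and is no member of the set, was chosen after its values were seen. Its level was 7.60, 7.81, 8.64, 8.73 and 8.39 in the control and 10.34, 8.83, 9.53, 9.22 and 9.25 in the treated arm from 4 to 120 h. It was higher in 5 of 5 pairs, by 1.20 ± 0.88 (SD, n = 5 pairs; limma adjusted p = 0.0293). The differences ran from 0.49 at 72 h to 2.74 at 4 h.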
